A study of Mus musculus with 6 samples.

Results

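The MYC, MAX and MXD network is a family of basic helix-loop-helix leucine zipper proteins, and its mRNAs were followed here through DMSO-induced erythroid maturation of MEL cells. The 10 genes considered were Myc, Mycn, Max, Mxd1, Mxi1, Mxd3, Mxd4, Mnt, Mga and Mlx, out of 23896 gene symbols in the count files. RefSeq accessions were matched to symbols, and of the 19 transcripts listed for these genes the one with the highest mean count stood for each gene. Of the 10, 9 passed the filter on low counts, and Mycn did not. MEL is a mouse erythroleukemia line held at an early erythroid stage, so it models maturation in a transformed and genetically abnormal cell. The mRNA-seq libraries came from untreated cells (day 0) and from cells treated with 2% DMSO for 2 days (day 2) or 4 days (day 4). Each day had 2 replicates, described in the study design as biological, which gave 6 libraries. Nothing in the labels says whether replicates were separate thaws or parallel dishes, so the p-values measure the spread between these libraries.

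MYC binds DNA only as a dimer with MAX, most often at the E-box CACGTG, and there recruits histone acetyltransferase complexes that raise transcription of genes for ribosome assembly, nucleotide synthesis and glycolysis. MXD1, MXI1, MXD3, MXD4 and MNT compete for the same partner and the same sites, and recruit the SIN3 corepressor with its histone deacetylases. MGA pairs with MAX inside a noncanonical Polycomb complex, while MLX pairs with the glucose-sensing factors MLXIP and MLXIPL and also with MXD1, MXD4 and MNT. In MEL cells Myc mRNA is known to fall within hours of induction, to return and then to decline again, and forced Myc expression is known to block their maturation. The earliest of these movements lies before the first treated time point sampled here.

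Depth was 35294930 to 53899476 counts on transcripts per library. Library-scaled counts below are CPM, the count of a transcript divided by the TMM-adjusted size of its library. Globin transcripts took 0.0342% to 0.0427% of counts in untreated libraries, 0.796% to 0.989% after 2 days and 3.85% to 4.13% after 4 days. Summed over 8 erythroid markers the level lay between 681 and 18806 CPM across libraries, whereas the 4 of 5 myeloid markers found in the files summed to at most 1.52 CPM, 3 lymphoid markers to at most 0.172 CPM and 3 fibroblast markers to at most 3.24 CPM. The 3 megakaryocyte markers summed to 211 to 617 CPM, most of it Itga2b, which had 209 and 227 CPM at day 0 and 531 and 606 CPM at day 4. Pf4 had 57.4 and 42.7 CPM at day 0 and 10.2 and 8.93 CPM at day 4, and Gp9 did not exceed 2.14 CPM. No marker was at 0 in all libraries, and the part of other cell types in the results was not tested. A lower level of an mRNA in such bulk libraries cannot be told apart from fewer cells that carry it.

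Because the network acts through the E-box, the proximal promoters of its own genes were searched for CACGTG, which reads the same on both strands. RefSeq promoter sequences (GRCm38.p6, 250 bases before to 50 after the start) were at hand for 9 of the 10 genes, all but Myc. These 9 genes had 11 windows. An E-box was present in 4 of the 11 windows, in Max, Mxd4, Mnt and Mlx, against 7.15% of all 32851 promoter windows. The 4 sites are shown 5′ to 3′ on the strand of the gene with 12 bases on each side, and capitals mark the E-box.
Mxd4: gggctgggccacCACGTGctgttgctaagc
Mnt: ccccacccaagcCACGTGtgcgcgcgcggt
Mlx: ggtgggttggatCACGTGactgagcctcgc
Max: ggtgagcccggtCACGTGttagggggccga

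The Mxd4 window lay at chr5:34187912-34187941 on the minus strand, with the E-box beginning at position -219 from the start. For Mnt it was chr11:74830789-74830818 on the plus strand (-123), and for Mlx chr11:101087238-101087267 on the plus strand (-40). In Max the E-box began at -3 and spanned the start itself, at chr12:76962234-76962263 on the minus strand. Positions are counted from the start used in the RefSeq promoter table, which for Max, Mxd1, Mxi1, Mnt, Mga and Mlx lies inside the extent of the gene. These letters mark a possible binding sequence, and occupancy was not measured. The other words searched, both strands included, were the E-box variant CACGCG (9.27% of all windows), which occurred in Mga, the GATA words AGATAA (11.2%) and TGATAA (9.05%), which occurred in no member window, and CACCC (57.5%), which occurred in Mycn, Max, Mxi1, Mxd4 and Mnt.

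Mxd4 and Mxd1 were the 2 members that rose most, and the 250 bases before their starts differed in makeup. The Mxd4 stretch, chr5:34187711-34187960 on the minus strand, had a GC content of 58.0% and held the E-box in capitals. The Mxd1 stretch, chr6:86669160-86669409 on the minus strand, had a GC content of 78.4% and no CACGTG.
Mxd4: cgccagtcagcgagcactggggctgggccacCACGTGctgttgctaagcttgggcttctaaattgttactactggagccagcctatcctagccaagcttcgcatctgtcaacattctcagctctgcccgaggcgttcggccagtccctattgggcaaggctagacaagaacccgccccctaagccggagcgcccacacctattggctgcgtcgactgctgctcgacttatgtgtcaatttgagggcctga
Mxd1: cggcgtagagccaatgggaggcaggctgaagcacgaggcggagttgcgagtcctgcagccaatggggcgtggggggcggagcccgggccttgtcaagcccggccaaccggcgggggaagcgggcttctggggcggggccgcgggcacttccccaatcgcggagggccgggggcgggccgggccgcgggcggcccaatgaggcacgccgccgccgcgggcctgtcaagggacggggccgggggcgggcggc

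Over the 4 days, Myc and its partner Max fell while the antagonists Mxd1 and Mxd4 rose, and Mxi1, Mnt, Mga, Mxd3 and Mlx ended with no called change. Between day 0 and day 4, 2 of the 9 tested members were called higher, against 35.5% of all 12381 genes tested, and 2 were called lower, against 36.4%. Together 4 of 9 members changed, where 71.8% of all genes did. In the first 2 days Mxd1, Mxd3 and Mxd4 were called higher and Max and Mlx lower, so that 5 of 9 members changed against 62.5% of all genes (31.0% higher, 31.5% lower). From day 2 to day 4, Mxd1, Mxd4 and Mlx were called higher and Myc and Mxd3 lower, 5 of 9 against 30.3% of all genes (14.0% higher, 16.2% lower). The change in the second 2 days differed from that in the first for Mxd3, Mxd4 and Mlx, 3 of 9 members against 30.0% of all genes. The median log2 fold change of the 9 members was 0.10, -0.08 and -0.03 for day 2 against day 0, day 4 against day 2 and day 4 against day 0, beside 0.01, -0.0046 and -0.02 over all genes.

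The balance of calls among all genes moved with the scaling. With TMM factors 49.6%, 46.4% and 49.4% of the calls in the 3 comparisons were in the higher direction, and with total counts alone 63.4%, 32.7% and 55.1% were. Total counts placed the median gene at 0.21, -0.09 and 0.10 in the same order, and the member values below are relative to the TMM scale. For the step difference the median gene was at -0.03 with TMM factors and -0.31 with total counts.

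**Figure D1:**
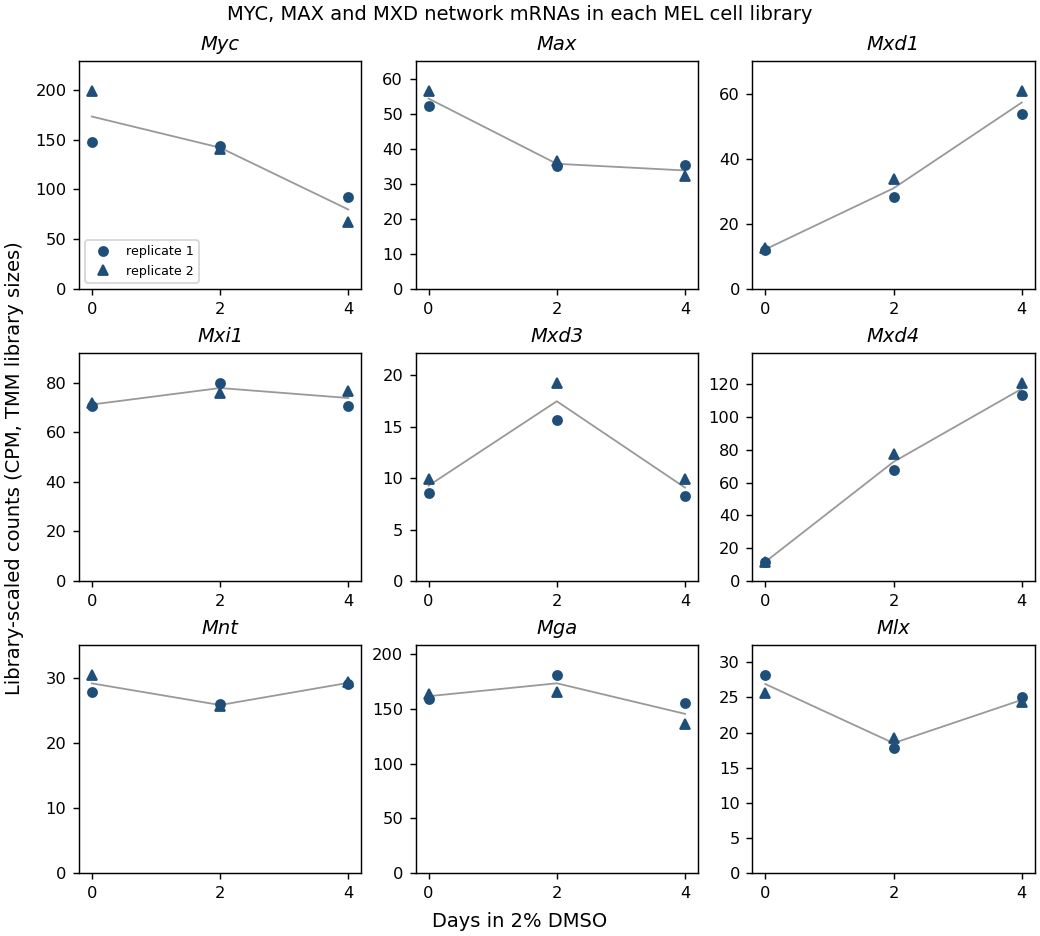
Library-scaled counts (CPM, linear axes that start at 0) of the 9 detected network genes against days in 2% DMSO, 1 panel per gene, with a circle for replicate 1, a triangle for replicate 2 and a line through the mean of both. Mxd4 climbs from a mean of 11.7 to 117 CPM and Mxd1 from 12.2 to 57.4 CPM, Myc descends from 173 to 79.8 CPM, Mxd3 peaks at day 2 and Mlx dips there.

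The coordinates given beside each accession are the GRCm38 extent of the gene and not of the single transcript. Myc (NM_001177352, chr15:61985341-61990361) encodes the activating member. With the transcript length used for each gene, it had the highest level per length of the network at days 0 and 2. Its level was 147 and 199 CPM in the day 0 libraries, 144 and 140 CPM at day 2 and 91.8 and 67.7 CPM at day 4. Both day 4 libraries lay under all others, while the day 0 libraries were far apart and the lower of them came close to day 2. The decline over 4 days was -1.12 on the log2 scale (SE 0.17, edgeR adjusted p = 0.000106), and leaving out any 1 library kept it between -1.36 and -0.90.

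Most of that decline fell in the second step, at -0.83 (SE 0.17, adjusted p = 0.00422), while the first step was -0.29 (95% interval -0.65 to 0.07, adjusted p = 0.148). The division between steps depended on single libraries. Without day 0 replicate 1 the first step was -0.49 and passed the test (adjusted p = 0.00583), and without day 0 replicate 2 it was -0.06. The second step missed the threshold without day 2 replicate 1 (-0.82, adjusted p = 0.0576) and without day 4 replicate 2 (-0.63, adjusted p = 0.0505). The difference between the steps was -0.54 (SE 0.28, edgeR adjusted p = 0.167). It ranged from -0.79 to -0.34 over left-out libraries, and was -0.78 without day 0 replicate 2, a fit with a lone day 0 library. With all libraries kept, the difference passed with total counts (-0.82, edgeR adjusted p = 0.0400) and with no filter on low counts (-0.56, edgeR adjusted p = 0.0368).

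Mycn (NM_008709, chr12:12936093-12941836), the paralog best known from the developing nervous system, had 0 counts in all 6 libraries. A count of 0 allows up to 3 counts, which is 0.0557 to 0.0850 CPM at these depths and covers counting error only.

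Max (NM_008558, chr12:76937269-76962323) encodes the partner that MYC needs to bind E-boxes and for which the MXD proteins compete. Counts were 52.1 and 56.6 CPM at day 0, 35.0 and 36.5 CPM at day 2, and 35.3 and 32.4 CPM at day 4. The day 0 libraries were highest and the later days overlapped. Max fell by 0.61 on the log2 scale in the first 2 days (SE 0.11, adjusted p = 0.000671), and day 4 differed from day 2 by -0.08 (95% interval -0.32 to 0.16, adjusted p = 0.619). Over the whole course Max fell by 0.69 on the log2 scale (SE 0.11, adjusted p = 0.000192). The difference between the 2 steps was 0.53 and missed the threshold (adjusted p = 0.0616), but passed it under DESeq2 (adjusted p = 0.0395) and without either day 0 library (adjusted p = 0.0117 and 0.0381 without replicates 1 and 2).

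Mxd4 (NM_010753, chr5:34176580-34187710), an antagonist known from differentiating tissues, had the largest change of the 9 tested members. It stood at 11.8 and 11.5 CPM at day 0, 67.7 and 77.6 CPM at day 2, and 114 and 121 CPM at day 4. The days did not overlap, and the gap between days was several times the gap between replicates. Mxd4 rose 6.22-fold by day 2 (log2 2.64, SE 0.12, adjusted p = 8.41e-08) and a further 1.61-fold by day 4 (log2 0.69, SE 0.11, adjusted p = 0.00121). The whole rise was 10.0-fold (log2 3.33, SE 0.12, adjusted p = 8.36e-09). The second step minus the first was -1.95 on the log2 scale (SE 0.18, adjusted p = 8.22e-05). An antisense gene, Gm42846, overlaps 514 of the 8483 exon bases annotated for Mxd4, and reads of the pair cannot be told apart where the counting did not use strand.

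Mxd1 (NM_010751, chr6:86647044-86669234) encodes the founding antagonist, induced when many cell types leave the cycle. Its libraries held 11.9 and 12.5 CPM at day 0, 28.2 and 33.7 CPM at day 2, and 53.8 and 61.0 CPM at day 4. As for Mxd4, each day lay above the one before without overlap. Mxd1 rose 2.55-fold in the first step (log2 1.35, SE 0.13, adjusted p = 8.49e-06) and 1.85-fold in the second (log2 0.89, SE 0.13, adjusted p = 0.000802), for 4.71-fold in all (log2 2.24, SE 0.13, adjusted p = 1.48e-07). The difference between its steps, -0.46, missed the threshold (edgeR adjusted p = 0.138), but with total counts it was -0.74 and passed (adjusted p = 0.0210).

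Mxd3 (NM_016662, chr13:55325170-55329900) differs from its relatives in being known as the antagonist of proliferating cells, expressed in S phase. It had 8.58 and 9.95 CPM at day 0, 15.7 and 19.3 CPM at day 2, and 8.23 and 9.92 CPM at day 4. The day 2 libraries stood above all others, and days 0 and 4 overlapped. The gene rose by 0.91 (SE 0.16, adjusted p = 0.000470) and then fell by 0.94 on the log2 scale (SE 0.16, adjusted p = 0.00177), and the steps differed by -1.86 (SE 0.27, adjusted p = 0.000771). Day 4 against day 0 was -0.03 (95% interval -0.38 to 0.33, adjusted p = 0.879). Its exons overlap those of Prelid1 on the opposite strand by 105 bases, and Prelid1 had 302 ± 53.1, 152 ± 13.2 and 156 ± 0.539 CPM at the 3 days (SD, n = 2). Its part in the Mxd3 values was not tested.

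Mxi1 (NM_001008542, chr19:53310128-53373293), the antagonist also called MXD2, was abundant and level. The libraries held 70.6 and 71.9 CPM at day 0, 80.0 and 75.8 CPM at day 2, and 70.9 and 76.9 CPM at day 4, with day 4 overlapping both other days. No comparison passed the test, and the 95% interval for day 4 against day 0 was -0.17 to 0.27 around 0.05 (adjusted p = 0.652). With total counts as the scale, day 2 against day 0 was 0.33 and passed (adjusted p = 0.0149). A second transcript, NM_010847, shares most of its reads, and the counts particular to NM_001008542 numbered 77 to 218 per library, 2.61% to 6.26% of its total.

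Mnt (NM_010813, chr11:74830806-74845725), the antagonist found in most cells whether they divide or not, had 27.9 and 30.5 CPM at day 0, 26.0 and 25.7 CPM at day 2, and 29.1 and 29.4 CPM at day 4. The day 4 libraries fell between those of day 0. Its change over 4 days was 0.00 on the log2 scale (95% interval -0.24 to 0.25, adjusted p = 0.977), and neither step passed the test. Mga (NM_013720, chr2:119872503-119970129), whose protein also carries a T-box, had 159 and 164 CPM at day 0, 181 and 166 CPM at day 2, and 155 and 136 CPM at day 4. Day 4 lay under both other days in each library, but the second step of -0.25 (95% interval -0.50 to -0.01) had an adjusted p of 0.111. It passed when either day 0 library was left out (adjusted p = 0.0357 without replicate 1 and 0.0360 without replicate 2) or when only days 2 and 4 were fitted (adjusted p = 0.0331). The first step of Mga, 0.10 (adjusted p = 0.451), was 0.30 with total counts and passed there (adjusted p = 0.0431).

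Mlx (NM_011550, chr11:101086707-101092207) dipped at day 2, opposite to Mxd3. It had 28.2 and 25.6 CPM at day 0, 17.8 and 19.2 CPM at day 2, and 25.0 and 24.3 CPM at day 4. The day 2 libraries were under all others, and both day 4 libraries were under day 0. Mlx fell by 0.54 on the log2 scale in the first step (SE 0.12, adjusted p = 0.00215) and rose by 0.41 in the second (SE 0.12, adjusted p = 0.0225), and the steps differed by 0.95 (SE 0.21, adjusted p = 0.00707).

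The size of the Mlx rise in the second step stayed between 0.36 and 0.46 on the log2 scale over left-out libraries. Its call was lost when either library of day 2 or either library of day 4 was left out. With total counts the rise was 0.33 and missed the threshold (edgeR adjusted p = 0.0646). The difference between the steps missed the threshold without day 2 replicate 1 (0.85, adjusted p = 0.127) and without day 2 replicate 2 (1.06, adjusted p = 0.0691). Exons of Psmc3ip overlap Mlx by 385 bases on the opposite strand. Psmc3ip averaged at most 0.755 CPM on any day, and its part in the Mlx values was not tested.

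**Figure D2:**
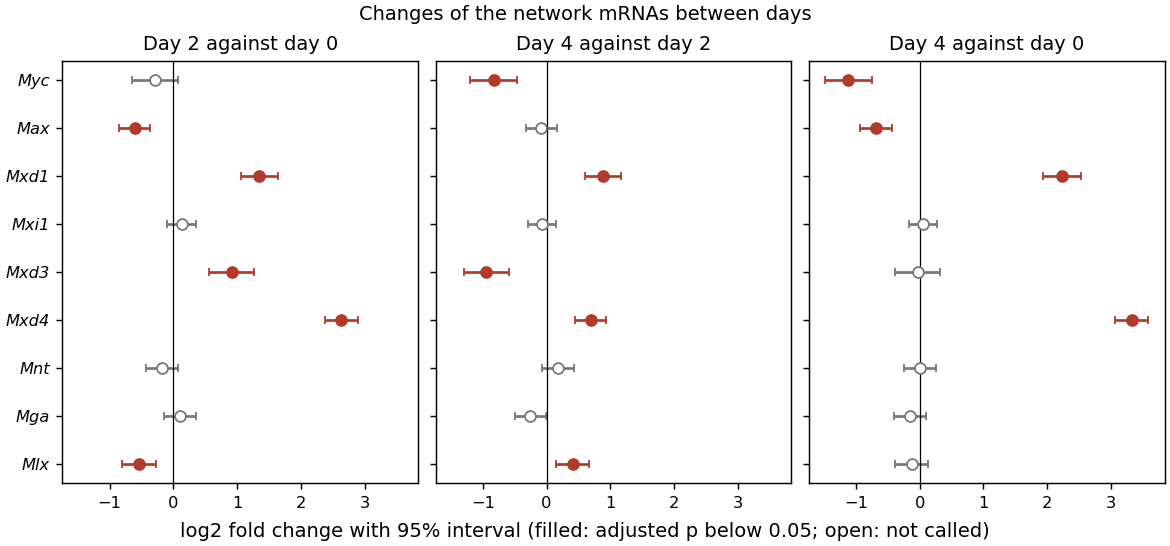
Log2 fold change of each tested network gene in 3 panels, day 2 against day 0, day 4 against day 2 and day 4 against day 0 (edgeR), with bars for 95% intervals, filled points for an adjusted p below 0.05 and open points for genes not called. Mxd4 and Mxd1 lie right of 0 in every panel, Mxd3 and Mlx change side between the steps, and the Mnt and Mxi1 intervals include 0 throughout.

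Levels can be compared between genes only per length, so counts were divided by transcript length (CPM per kilobase). At day 0 Myc was at 63.0 and 85.1 CPM per kilobase, above Max (26.8 to 29.1) and Mxi1 (26.9 to 27.4), which overlapped. Mlx (13.0 to 14.3) and Mga (11.4 to 11.8) came next, Mxd3 (6.47 to 7.50) and Mnt (6.08 to 6.64) overlapped, and Mxd4 (2.98 to 3.06) and Mxd1 (2.54 to 2.67) were last of the detected members. By day 4 Mxd4, at 29.4 and 31.2 CPM per kilobase, overlapped Myc at 39.3 and 29.0, and Mxd1 at 11.5 and 13.1 overlapped Mlx at 12.7 and 12.4. In rank, Mxd4 moved from 8 to 3 to 2 and Mxd1 from 9 to 8 to 6 over the 3 days.

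At day 2 the order was Myc (61.5 and 59.9 CPM per kilobase), Mxi1 (30.4 and 28.9), an overlapping Mxd4 (17.5 and 20.0) and Max (18.0 and 18.8), then Mxd3 (11.8 and 14.5) overlapping Mga (13.0 and 11.9). Mlx (9.07 and 9.76), Mxd1 (6.05 and 7.23) and Mnt (5.67 and 5.59) followed without overlap. These levels use the annotated length of 1 transcript per gene, and a member whose cells use other ends would be misplaced. Mxi1 has an annotated transcript of 1018 bases with nearly the counts of the one used, at 2627 bases. Were that the form in the cells, Mxi1 would stand higher, and the order, the shares and the Myc ratios would change. Which form the cells used was not tested.

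**Figure D3:**
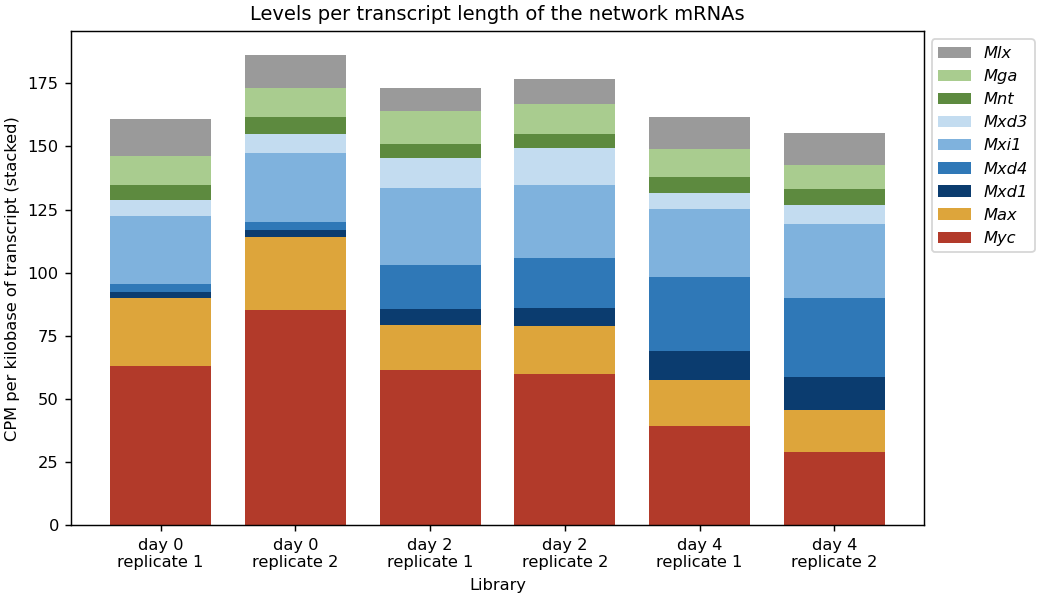
Level per length (CPM per kilobase of transcript) of the 9 detected network genes, stacked in 1 bar per library. The bars are of similar height (155 to 186), while the Myc segment shortens from 63.0 and 85.1 at day 0 to 39.3 and 29.0 at day 4 and the Mxd4 segment grows from about 3.02 to 30.3.

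The summed level of all 10 members stayed within a narrow range, at 161 and 186 CPM per kilobase at day 0, 173 and 177 at day 2, and 162 and 155 at day 4. Its makeup changed. The share of Myc in the sum went from 42.5% ± 4.59 in untreated cells to 34.7% ± 1.12 and then 21.5% ± 3.98 (SD, n = 2). Mxd4 went from 1.75% ± 0.216 to 10.7% ± 0.871 and 19.1% ± 1.38, and Mxd1 from 1.51% ± 0.104 to 3.80% ± 0.420 and 7.78% ± 0.917.

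Myc mRNA relative to the summed Mxd1, Mxi1, Mxd3, Mxd4, Mnt and Mga was 1.12 and 1.44 at day 0, 0.727 and 0.680 at day 2, and 0.429 and 0.298 at day 4. The 3 days did not overlap, and the mean went from 1.28 ± 0.232 to 0.704 ± 0.0336 and 0.363 ± 0.0928. Both sides of the ratio moved, since the 6 antagonists summed to 56.4 and 58.9 CPM per kilobase at day 0, 84.5 and 88.1 at day 2 and 91.5 and 97.2 at day 4. Against the 4 MXD genes alone the Myc ratio was 1.62 and 2.1, then 0.934 and 0.848, then 0.530 and 0.357. Mxd4 over Myc was 0.0485 and 0.0350 at day 0 and 0.747 and 1.08 at day 4.

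Max relative to the sum of its partners was 0.225 and 0.202 at day 0, 0.123 and 0.127 at day 2, and 0.139 and 0.132 at day 4, highest at day 0 and lowest at day 2 without overlap. These ratios are descriptions of mRNA and carry no test, as the members were chosen with results of these data known, and protein levels were not measured.

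Genes that MYC is known to activate were followed with a list of 48, drawn from ribosome assembly, nucleotide and polyamine synthesis, glycolysis, translation and the cell cycle. By day 4, 44 were called lower and 2 higher than at day 0, against 36.4% and 35.5% of all genes, with a median log2 fold change of -1.73 beside -0.02 for all genes. The largest falls were glycolytic. Hexokinase Hk2 went from 154 ± 31.2 to 10.2 ± 0.566 CPM (log2 -3.91, SE 0.15, adjusted p = 1.24e-08), lactate dehydrogenase Ldha from 1193 ± 245 to 87.8 ± 2.47 CPM (log2 -3.76), and pyruvate kinase Pkm from 1715 ± 320 to 194 ± 28.1 CPM (log2 -3.14). Among the others, nucleolin Ncl (log2 -1.84), the pyrimidine synthesis enzyme Cad (-2.04) and ornithine decarboxylase Odc1 (-0.90) fell as well.

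Most of these targets were already lower at day 2, when Myc itself had no called change. In the first step 44 were called lower and 1 higher (median -1.24), where 31.5% of all genes were lower and 31.0% higher. In the second step 30 were lower and 2 higher (median -0.52), where 16.2% of all genes were lower and 14.0% higher. The second count rested on single libraries, at 9 called lower without day 2 replicate 1 and 38 at the other end of the range over left-out libraries. The 2 genes that rose by day 4 were cyclin D2, Ccnd2, from 182 ± 1.55 to 457 ± 14.7 CPM (log2 1.33), and the transferrin receptor Tfrc, from 250.2 ± 7.39 to 582 ± 45.3 CPM (log2 1.22), which imports the iron needed for heme. E2f2 (log2 -0.04, adjusted p = 0.798) and Tert (log2 -0.30, adjusted p = 0.188) did not pass.

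Of 12 genes known to be repressed by MYC, 11 were tested, and 5 were called higher and 3 lower by day 4 (median 0.32). These counts were near the shares over all genes, 35.5% higher and 36.4% lower. The antiproliferative gene Btg2 rose 12.6-fold (log2 3.66, SE 0.14, adjusted p = 1.24e-08), from 10.6 ± 1.73 to 134 ± 5.06 CPM. The CDK inhibitor Cdkn2b rose by 2.02 and the stress gene Gadd45a by 1.01 on the log2 scale. In the other direction the CDK inhibitor Cdkn1a fell by 1.93, from 27.2 ± 8.35 to 7.09 ± 1.44 CPM, and Ndrg1 and Cebpa fell by 0.88 and 0.86 on the log2 scale.

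Targets of the parallel MLX branch moved mostly upwards. Of 7 listed genes 6 were tested, of which 5 were called higher and 1 lower by day 4 (median 2.26), against 35.5% and 36.4% of all genes. The gene not tested, Arrdc4, had 1 count in all libraries together. Txnip, the glucose-responsive inhibitor of thioredoxin, went from 407 ± 32.2 to 2527 ± 73.2 and 4739 ± 144 CPM, an 11.7-fold rise (log2 3.54, SE 0.15, adjusted p = 1.85e-08). The arrestin-like Arrdc3 and the repressor Klf10 rose by 2.47 and 2.29, and the pyruvate kinase gene Pklr fell by 2.02 on the log2 scale. Mlxip, which encodes the MLX partner MondoA, rose 2.07-fold (log2 1.05, SE 0.12, adjusted p = 1.17e-05), from 33.4 ± 4.28 to 51.7 ± 1.93 and 69.0 ± 2.39 CPM. The E-box repressor Bhlhe40 fell by 1.97 on the log2 scale, and of 8 further E-box and partner genes listed, Mlxip and Bhlhe40 among them, 5 were tested, with 1 called in each direction.

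**Figure D4:**
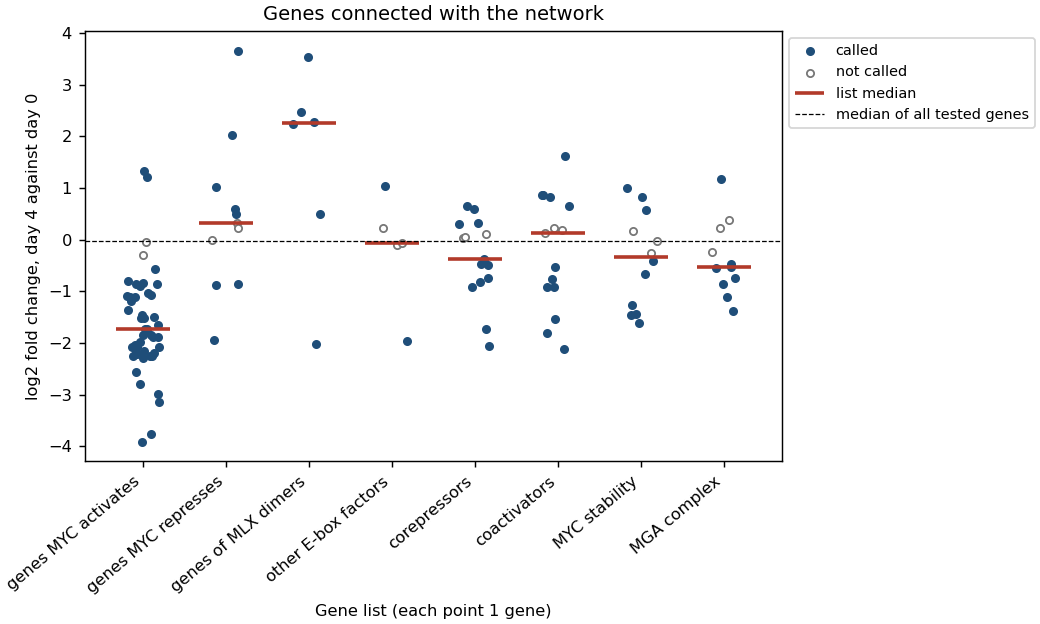
Change over 4 days (log2 fold change, day 4 against day 0) of the genes in each list connected to the network, 1 point per gene, filled where the adjusted p is below 0.05 and open otherwise, with a bar at the list median and a dashed line at the median of all tested genes. The 48 genes that MYC activates lie mostly under 0 with a median of -1.73, and the genes of MLX dimers mostly above 0 with a median of 2.26.

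The cofactors of the network were split, and their counts at day 4 stand beside 35.5% of all genes higher and 36.4% lower. Of 15 SIN3 and deacetylase corepressor genes 4 were called higher and 8 lower by day 4 (median -0.37), and among the former were Arid4b (log2 0.65) and Sin3b (0.60), with Rbbp7 (-2.06), Sap30 (-1.74) and Hdac2 (-0.92) among the latter. Hdac2 and Rbbp7 encode the deacetylase and a histone chaperone of the complex that MXD proteins recruit. The count of higher corepressor genes was 2 in 5 of the 6 fits that left out 1 library, day 0 replicate 2 being the exception.

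Of 15 genes for coactivators of MYC, 5 were called higher and 7 lower (median 0.13), near the shares of 35.5% and 36.4% over all genes. The scaffold Trrap (0.87), the acetyltransferase Ep300 (0.87) and the kinase Pim1 (1.62) rose, and the helicases Ruvbl1 (-2.11) and Ruvbl2 (-1.80) and the actin-like Actl6a (-1.54) fell. Among 12 tested genes that control MYC protein stability, 3 were higher and 6 lower (median -0.33). Those that rose were Stub1 (1.01), Gsk3b (0.83) and Fbxw7 (0.58), which serve MYC turnover, and Skp2 (-1.61) and Aurka (-1.43) fell, of which Aurka encodes a kinase that shields MYC proteins from degradation.

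In the Polycomb complex that MGA joins, 7 of 11 genes were lower and 1 higher (median -0.54), against 36.4% and 35.5% of all genes. Tfdp1 (-1.38), Cbx3 (-1.11) and Yaf2 (-0.86) fell, and the ubiquitin ligase gene Ring1 rose (1.17). The single higher gene became 2 with total counts and without day 0 replicate 1.

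Genes with the pattern most like Myc were ranked by the Euclidean distance between log2(CPM + 0.5) profiles over the 6 libraries, each centred on its own mean, among 10454 genes. Among the 5 nearest were Zfp239 (distance 0.138), Fancc (0.194), Hmmr (0.229) and Bfsp2 (0.231). Fancc acts in DNA crosslink repair and Hmmr at the mitotic spindle. For Mxd4 they were Ttc39a (0.139), Rapgefl1 (0.151), Tspan18 (0.166), Ypel3 (0.231) and 6030468B19Rik (0.244), and Ttc39a went from 3.57 to 24.1 and 38.4 CPM.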

How the data were processed

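Poly(A)-selected stranded mRNA libraries were trimmed with cutadapt and aligned to mm10 (GRCm38) with TopHat, and the authors deposited raw read counts per RefSeq transcript, unnormalized and not pooled. HTSeq is named in the submitters' processing notes, and its settings, use of strand and annotation release are not given in the sources used here. Overlapping genes on opposite strands are therefore uncertain, as are levels of transcripts that share reads. Reads assigned to no feature and rows naming no gene were left out of library sizes. The no-feature reads made 50.5% to 58.4% of their sum with the counts on transcripts. A read shared by several transcripts enters that sum more than once, so these are not shares of all reads.

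Groups were taken from the labels. Counts of all 6 libraries were fitted with edgeR 4.0.16 (R 4.3.3; TMM factors, filterByExpr by day, glmQLFit and glmQLFTest), with Benjamini-Hochberg adjustment over 18351 transcripts and a call at an adjusted p below 0.05. A contrast of the second with the first 2 days tested whether steps differed. For genes, the transcript with the highest mean count was used, which gave 12381 tested genes. Symbols, positions and promoters came from RefSeq (GRCm38) and GENCODE M21 tables and matched 32386 of 32654 transcripts, of which 31824 had a length. Fits were tested on simulated data.

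The members, lists and tests were chosen with earlier results of these data known. The genes named were the 10 members, the 3 largest called changes in each direction of each list for day 4 against day 0, and the 5 genes nearest in pattern to Myc and to the members with the largest rise and fall (at a mean log2 CPM of at least 1). Ncl, Cad, Odc1, E2f2, Tert, Arrdc4 and genes overlapping members were named beyond that rule after their values were seen. Some genes under this rule are not reported here. Lists got no test. Alternatives were DESeq2 1.42.0, RLE factors, total counts, no globin transcripts, no filter, 2-day fits, a replicate block, 1 transcript per gene, the longest transcript, a minimum log2 change of 1 and leaving out each library. Intervals are 95%, and floors of 3 counts cover counting error only.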

Additional observations from a re-analysis of the deposited data

Results flagged for a closer look

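For 3 members the change in the second 2 days differed from that in the first, by the contrast in the edgeR fit, against 30.0% of all genes with such a difference. Mxd3 had a difference of -1.86 on the log2 scale, rising and then falling. For Mxd4 it was -1.95, a rise in both steps that was smaller in the second. Mlx had 0.95, a fall followed by a rise.

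Reads that the counter assigned to no feature had a mean of 52.3% at day 0, 53.2% at day 2 and 58.2% at day 4. The percentages refer to the sum of these reads and the counts on transcripts. That sum repeats a read shared by transcripts, so they are not shares of all reads. By this measure the day 4 libraries had more no-feature reads than the untreated ones. The part of these reads in the member values was not tested.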

How the results depend on the processing

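The falls of Myc and Max and the rises of Mxd1 and Mxd4 over 4 days kept their direction under all alternatives that could alter them. Ranges over left-out libraries were -1.36 to -0.90, -0.75 to -0.63, 2.14 to 2.32 and 3.28 to 3.37. For every member the longest transcript was the one already used, and the minimum log2 change reused the main estimates. Neither of these alternatives could change a member value. A fit that leaves out a library assumes that the lone library of that day varies like the others. Among member changes, only ones that were not called changed sign, and the cause was not tested. For Mnt, day 4 against day 0 was -0.017 under both DESeq2 and RLE factors and -0.064 to 0.057 over left-out libraries. Its day 2 against day 0 value was -0.18 with TMM factors and 0.023 with total counts, where the median gene was at 0.01 and 0.21. Mxd3, day 4 against day 0, was 0.085 with total counts and -0.18 to 0.10 over left-out libraries, and Mxi1 was -0.012 to 0.11.

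With total counts 5 members were higher in the first step, 6 had a negative step difference and 3 MYC targets were higher in the first step. The median gene itself moved with this scale, to 0.21 in the first step and -0.31 in the step difference. The part of that move in the member calls was not tested. With no filter 2 MYC targets were higher in the first step. DESeq2 and RLE factors each gave 2 members with a positive step difference. Requiring a log2 change of 1, by construction, left 0 members lower in the first step, 0 higher and 0 lower in the second, 1 lower over 4 days and 0 with a positive step difference, and 0 MYC targets higher and 28 lower in the first step and 1 higher and 0 lower in the second.

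Over left-out libraries, 1 to 3 members were lower in the second step and 0 to 2 had a positive step difference. MYC targets numbered 1 to 2 higher in the first step, and 1 to 2 higher and 9 to 38 lower in the second.

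Same-numbered libraries shared little deviation over the transcripts (correlations 0.0316, 0.0451 and 0.0791). These values cannot show whether same-numbered libraries came from a common culture or batch. With the replicate block 3 members were higher and 2 lower in each step and 2 and 2 over 4 days, and all 9 tested members had the call they had without it in each comparison and in the step difference. Depth limits Mycn, which had 0 counts. Its part in the other members' values was not tested.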
